A study of Homo sapiens with 12 samples.

Results

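The genes described here are 10 transcription factors of the AP-1 and immediate early class, namely FOS, FOSB, FOSL1, FOSL2, JUN, JUNB, JUND, ATF3, EGR1 and BATF3. They were chosen by name, with earlier results of these data known. Every probe set whose only platform gene symbol is one of these was read. This gave 24 of the 54613 probe sets tested and 10 of the 19775 genes they name. The cells were MDA-MB-231, a human breast cancer line of mesenchymal character that is widely used to study invasion. Sharp1 cells overexpress Sharp1, a repressor of the basic helix-loop-helix class encoded by BHLHE41, and the sources used here do not name their vector. shHIF cells carry a retroviral hairpin construct against HIF1a and HIF2a, and shGFP cells a retroviral hairpin against GFP. shGFP cells are used here as the control of both. No group is labelled as an empty vector for Sharp1. In Sharp1 against shGFP, Sharp1 itself and a difference in construct therefore cannot be told apart. Sharp1 against shHIF has the same limit, and there HIF depletion differs as well. Each group has 4 arrays, A to D, called biological replicates by the labels, and all cells were grown without treatment. The labels do not say whether replicates came from separate cultures or infections, so the p-values cover array to array spread that may be technical.

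AP-1 is a family of dimers of basic leucine zipper proteins. JUN proteins pair with themselves or with FOS, ATF and BATF proteins, whereas FOS proteins need a JUN partner, and the dimers bind short palindromic sites known as TRE and CRE. Several of these genes, with the zinc finger factor EGR1, are immediate early genes: growth factors and stress switch them on within minutes through ERK and JNK kinases and the serum response factor SRF, and their RNA is short-lived. In mesenchymal breast carcinoma lines FOSL1, which encodes FRA-1, is known as a leading member of the FOS family.

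The 250 bases before the annotated start are shown for 4 members: EGR1, FOS and JUNB, which have 1 window each, because their transcripts rose in both Sharp1 and shHIF cells, and FOSL2 because its probe sets moved in opposite directions in shHIF cells. The sequences are RefSeq's, of build GRCh38.p14, on the strand of the gene. Capitals mark every match, on either strand, to the TRE (TGANTCA), the CRE (TGACGTCA), the CArG box that SRF binds, the EGR site (GCGNGGGCG), the E box bound by Sharp1 (CACGTG) or the core of the HIF site (ACGTG), which is also contained in that E box. EGR1 lies at chr5:138465229-138465478 on the plus strand, FOS at chr14:75278578-75278827 on the plus strand, JUNB at chr19:12791236-12791485 on the plus strand and FOSL2 at chr2:28392608-28392857 on the plus strand.
EGR1: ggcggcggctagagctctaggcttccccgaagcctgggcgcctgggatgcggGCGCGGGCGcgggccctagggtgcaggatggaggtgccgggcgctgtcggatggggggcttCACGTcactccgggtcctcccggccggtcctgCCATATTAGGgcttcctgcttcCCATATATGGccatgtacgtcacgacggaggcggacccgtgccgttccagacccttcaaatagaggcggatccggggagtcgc
FOS: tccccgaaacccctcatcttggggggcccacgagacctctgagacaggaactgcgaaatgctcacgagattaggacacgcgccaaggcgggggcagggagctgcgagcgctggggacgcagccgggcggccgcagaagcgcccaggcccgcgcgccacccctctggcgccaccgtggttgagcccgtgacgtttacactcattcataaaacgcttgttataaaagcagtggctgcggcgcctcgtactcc
JUNB: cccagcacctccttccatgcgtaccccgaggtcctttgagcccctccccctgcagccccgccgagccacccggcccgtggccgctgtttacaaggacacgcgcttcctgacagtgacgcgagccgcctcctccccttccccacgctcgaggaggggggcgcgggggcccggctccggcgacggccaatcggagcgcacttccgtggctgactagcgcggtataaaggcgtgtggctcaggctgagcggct
FOSL2: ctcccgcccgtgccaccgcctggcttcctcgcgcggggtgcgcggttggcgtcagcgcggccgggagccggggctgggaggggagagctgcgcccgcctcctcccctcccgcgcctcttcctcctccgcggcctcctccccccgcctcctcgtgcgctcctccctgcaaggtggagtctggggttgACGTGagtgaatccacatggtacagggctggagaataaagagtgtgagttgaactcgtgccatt
In the EGR1 window, 2 CArG boxes begin 105 and 83 bases before the start, an EGR site begins 198 bases before it and a HIF core 137 bases before it. The FOSL2 window has a HIF core that begins 64 bases before the start, and the FOS and JUNB windows have no match to these letters. The reference table held 9 such windows for 8 members (ATF3, which also rose in both, has 2, neither with a match, and they are not printed), and FOSL1 and BATF3 were not matched. A CArG box was in 1 of the 9, against 1.16% of 35116 promoters of the same length, and the E box in 0 of 9, against 6.34%. The HIF core was in 2 of 9, against 18.5% of all promoters, and the EGR site in 1, against 8.41%. The CRE was in 1 (JUND), against 1.65%, and the TRE in 0, against 6.57%. A match to letters is a description of the window and not evidence of binding. Sites that vary from these letters or lie outside the window were not counted, so no match does not mean no site.

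The targeted genes were read first. Of 4 probe sets of BHLHE41, 1 differed between Sharp1 and shGFP by 5.35 on the log2 scale (SE 0.12, limma adjusted p = 1.39e-19), another by 1.59, another in the opposite direction by -2.06, and the last by -0.13 without passing. The first 2 read 3.89 and 4.42 in shGFP, below the median probe set of 5.41, so their exact size is uncertain. EPAS1, the gene of HIF2 alpha, and HIF1A, that of HIF1 alpha, fell in shHIF cells to 13.8% and 60.2% of the control signal, and EPAS1 also fell in Sharp1 cells, to 61.1%. These EPAS1 values are from its brightest probe set. Its other probe sets read 3.99 and 3.22 in shGFP, below the median probe set. They differed by -0.12 and 0.11 in shHIF and by 0.01 and 0.10 in Sharp1 without passing. Of 4 mesenchymal markers 3 were bright, with VIM at 14.2 to 14.6 on all arrays. Of 6 luminal markers only CDH1 (3.86 to 4.16) and PGR lay below the median probe set, while EPCAM averaged 8.92 in Sharp1, 9.20 in shHIF and 9.54 in shGFP and GATA3, ERBB2 and ESR1 were also above it. Of 4 leukocyte markers measured, 3 lay below that median, and their mean per array was 4.88 to 5.11 in Sharp1, 4.91 to 5.19 in shHIF and 4.94 to 5.04 in shGFP. The leukocyte marker PTPRC, which lay below that median, averaged 4.45 in Sharp1, 4.38 in shHIF and 4.01 in shGFP. The other leukocyte markers did not share this rise. CD79A averaged 5.98 in Sharp1, 6.05 in shHIF and 6.17 in shGFP, and CD14 4.58, 4.72 and 4.72 in the same order. CD3E averaged 5.03 in Sharp1 and in shGFP and was no higher in shHIF. The part of PTPRC in the results was not tested. Spike-in signal was lower on shHIF A and D (10.4 on each) than on the other arrays (10.6 to 10.8). The actin probe sets of the 3′ end exceeded those of the 5′ end, a measure of RNA integrity, by 0.56 to 0.85 in Sharp1, 0.94, 0.90, 0.91 and 0.62 on shHIF A to D, and 0.59 to 0.74 in shGFP. Without shHIF A and D, 15 of the 24 probe sets were called in shHIF against shGFP, in place of 17, and the part of the actin difference was not tested.

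In Sharp1 cells, EGR1, JUNB, FOS, FOSB and ATF3 transcripts were higher than in shGFP cells, and FOSL1, FOSL2 and BATF3 were lower, each by its brightest probe set. In shHIF cells, by the same probe sets, EGR1, ATF3, JUNB, FOS and FOSL2 were higher than in shGFP cells and JUND was lower. JUN did not pass there by its brightest probe set (-0.10), whose probes may cross-hybridise. Yet JUN values in shHIF cells averaged below shGFP on all 4 probe sets, and 2 of these passed. The difference was -0.42 on 201466_s_at (limma adjusted p = 5.18e-07) and -0.23 on the mean of the 4 (adjusted p = 0.000209). Of the 24 probe sets, limma called 7 higher and 7 lower in Sharp1 cells at an adjusted p under 0.05, or 58.3%, where 18.1% of all probe sets were called (9.82% higher, 8.26% lower). In shHIF cells 11 were called higher and 6 lower, or 70.8%, against 22.2% of all probe sets (10.7% higher, 11.5% lower). By the brightest probe sets 8 of 10 genes were called in Sharp1, against 24.7% of all genes, and 6 in shHIF, against 28.3%. Dim probe sets are called less often, and 21 of the 24 lay above the median: among all probe sets above it, 31.7% were called in Sharp1 and 37.7% in shHIF. The median difference of the 24 was -0.07 in Sharp1 cells, against -0.01 over all probe sets, and 0.18 in shHIF cells, against 0.02. The groups did not overlap for 14 of the 24 in Sharp1 against shGFP, where this held for 21.6% of all probe sets, and for 17 in shHIF against shGFP, where it held for 22.3%. Both comparisons use the same shGFP arrays, and probe sets of 1 gene share their transcripts. The members were chosen with earlier results known, so their shares of calls describe these genes and do not test them as a set. In bulk RNA, fewer cells with a transcript and less of it per cell cannot be told apart.

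**Figure D1:**
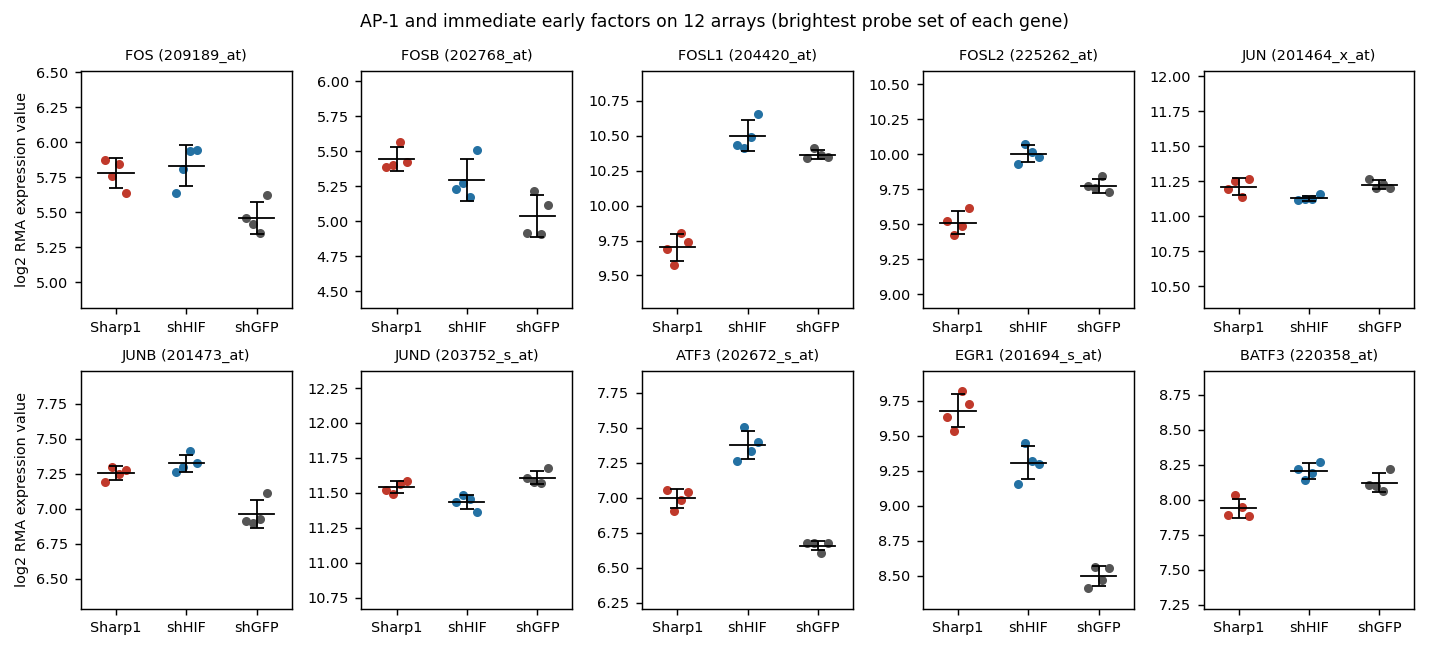
Log2 RMA expression value (vertical axis) of the brightest probe set of each gene in Sharp1, shHIF and shGFP cells; points are arrays A to D from left to right, and bars give the mean and SD of 4 arrays. All panels span the same range of log2 units. EGR1 is above shGFP on every Sharp1 and shHIF array, FOSL1 is lower in Sharp1 alone among the 3 groups, and ATF3 is highest in shHIF.

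EGR1, a zinc finger factor induced by mitogens and stress, differed more than any other member by its brightest probe set. Its log2 values on arrays A to D were 9.63, 9.54, 9.82 and 9.73 in Sharp1 cells, 9.16, 9.45, 9.32 and 9.30 in shHIF cells, and 8.41, 8.56, 8.47 and 8.55 in shGFP cells. The 3 groups did not overlap, in the order Sharp1, shHIF, shGFP. EGR1 was 2.27-fold higher in Sharp1 than in shGFP cells (log2 1.18, SE 0.07, limma adjusted p = 1.22e-12). In shHIF cells it was 1.75-fold higher (log2 0.81, SE 0.07, adjusted p = 1.92e-09). The Sharp1 level was also above the shHIF level, by 0.37 (adjusted p = 7.31e-05). The other 2 probe sets of EGR1 were called higher in both comparisons, by 0.94 and 1.30 in Sharp1 and by 0.93 and 0.84 in shHIF. They were split on the direct comparison of Sharp1 with shHIF: 227404_s_at differed by 0.46 (adjusted p = 0.00265), whereas 201693_s_at differed by 0.01, with a 95% interval of -0.22 to 0.24.

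FOS encodes the short-lived partner of JUN that is made within minutes of stimulation. Its signal was low, with a mean over 12 arrays of 5.69, close to the median probe set of 5.41. On its 1 probe set FOS read 5.87, 5.76, 5.84 and 5.63 in Sharp1 cells, 5.63, 5.81, 5.94 and 5.94 in shHIF cells, and 5.46, 5.41, 5.35 and 5.62 in shGFP cells. All Sharp1 and shHIF arrays lay above all shGFP arrays, by as little as 0.01 at the nearest values. Sharp1 differed from shGFP by 0.32 (SE 0.10, adjusted p = 0.0225), and shHIF by 0.37 (SE 0.10, adjusted p = 0.00635). The Sharp1 call was lost without shGFP A (adjusted p = 0.0512), B (0.0605) or C (0.0783) and without Sharp1 A (0.0762) or C (0.0682). Sharp1 and shHIF differed by -0.05, with a 95% interval of -0.25 to 0.15.

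FOSB, a close relative of FOS, was dim, with a mean over 12 arrays just below the median probe set. FOSB values were 5.39, 5.40, 5.57 and 5.43 in Sharp1 cells, 5.23, 5.27, 5.17 and 5.51 in shHIF cells, and 4.91, 5.21, 4.91 and 5.12 in shGFP cells. All Sharp1 arrays lay above all shGFP arrays, and the shHIF arrays overlapped with them. FOSB was higher in Sharp1 cells by 0.41 (SE 0.10, adjusted p = 0.00508). In shHIF cells the difference of 0.26 did not pass (adjusted p = 0.0765), except without shGFP B (0.0452) and in the fit to the mean of probe sets per gene (0.0332). FOSB has 1 probe set, so in that fit its difference stayed at 0.26 and only the adjusted p moved.

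FOSL1 showed the strongest fall of the members in Sharp1 cells. It read 9.69, 9.57, 9.80 and 9.74 in Sharp1 cells, 10.43, 10.41, 10.49 and 10.66 in shHIF cells, and 10.34, 10.41, 10.36 and 10.35 in shGFP cells. The Sharp1 arrays lay wholly below both other groups. The FOSL1 signal in Sharp1 cells was 63.2% of that in shGFP cells (log2 -0.66, SE 0.05, adjusted p = 1.59e-09) and 57.6% of that in shHIF cells (log2 -0.80, adjusted p = 3.60e-11). Between shHIF and shGFP the difference was 0.13, with a 95% interval of 0.02 to 0.25 before adjustment and an adjusted p of 0.0866. Its highest array was shHIF D.

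FOSL2, which encodes FRA-2, was measured on 5 probe sets, and these gave different directions in shHIF cells. On the brightest, 225262_at, FOSL2 read 9.52, 9.42, 9.48 and 9.62 in Sharp1 cells, 9.93, 10.07, 10.02 and 9.98 in shHIF cells, and 9.77, 9.76, 9.85 and 9.73 in shGFP cells. The groups did not overlap, with shHIF highest and Sharp1 lowest: the difference from shGFP was -0.27 in Sharp1 (SE 0.05, adjusted p = 0.000357) and 0.23 in shHIF (SE 0.05, adjusted p = 0.00167), or 0.35 in shHIF on the mean of the 5 probe sets. The other probe sets that rose in shHIF cells were 218880_at by 0.92, 205409_at by 0.55 and 218881_s_at by 0.34.

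In contrast, 228188_at of FOSL2 fell in shHIF cells, by 0.29 (SE 0.05, adjusted p = 0.000117). It read 8.63, 8.57, 8.57 and 8.66 in Sharp1 cells, 8.82 on each of the 4 shHIF arrays, and 9.08, 9.20, 9.08 and 9.09 in shGFP cells. On this probe set shGFP was the highest group. In Sharp1 cells 3 of the 5 were called lower, 228188_at most, by 0.50, and the remaining pair differed by -0.08 and -0.21 without passing. The Sharp1 call of 218881_s_at (-0.29) was lost without shGFP B (adjusted p = 0.0591) or Sharp1 A (0.0558). All 5 were lower in Sharp1 than in shHIF cells, by 0.21 to 1.13, and each was called. The position of these probe sets along the transcript was not analysed here.

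**Figure D2:**
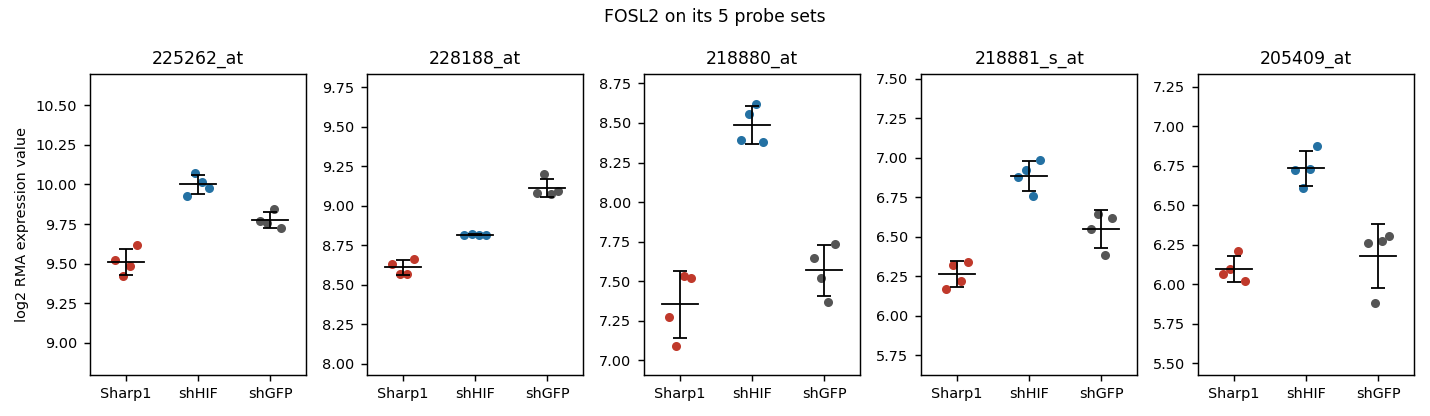
Log2 RMA expression value of FOSL2 on its 5 probe sets, from the brightest on the left, in Sharp1, shHIF and shGFP cells; points are arrays A to D and bars give the mean and SD of 4 arrays. shHIF is the highest group on 4 probe sets and lies between Sharp1 and shGFP on 228188_at.

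JUN, the founding member of the family, had differences whose size and calls depended on the probe set. All 4 were lower than in shGFP, at -0.23 to -0.01 in Sharp1 cells and -0.42 to -0.10 in shHIF cells. The brightest, 201464_x_at, whose probes may cross-hybridise, read 11.19, 11.25, 11.14 and 11.27 in Sharp1 cells, 11.11, 11.12, 11.12 and 11.16 in shHIF cells, and 11.26, 11.20, 11.23 and 11.20 in shGFP cells. The Sharp1 arrays overlapped with those of shGFP (difference -0.01, 95% interval -0.09 to 0.06), although the mean of all 4 probe sets was lower in Sharp1 (-0.12, adjusted p = 0.0324). The shHIF arrays lay below them by a small step that did not pass (-0.10, adjusted p = 0.0697), although it passed with 1 probe set per gene (0.0472), without dim probe sets (0.0383) and as the mean of all 4 probe sets (-0.23, adjusted p = 0.000209). 

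On 201466_s_at, JUN read 9.51, 9.47, 9.49 and 9.49 in Sharp1 cells, 9.22, 9.25, 9.25 and 9.14 in shHIF cells, and 9.59, 9.64, 9.58 and 9.73 in shGFP cells. The shHIF arrays were lowest, with a fall of 0.42 (SE 0.05, adjusted p = 5.18e-07), and this call held in every alternative run. The Sharp1 difference on the same probe set was -0.15 (adjusted p = 0.0366). That call was lost without any 1 of the Sharp1 arrays (adjusted p = 0.0576 to 0.0757), without shGFP B (0.0748) or D (0.131), with each array centred on its median (0.129) and without a variance trend (0.0953). Another probe set, 201465_s_at, was called lower in both, by 0.23 in Sharp1 and 0.21 in shHIF. The first of these calls was lost without shGFP A (0.0699) or B (0.0819) or Sharp1 A (0.0605) or C (0.108) and without a variance trend (0.0779), and the other without the trend (0.0910), without shGFP A (0.0902) or B (0.111) or shHIF A (0.0559), B (0.0730) or C (0.107). On the fourth, 213281_at, the differences were -0.08 in Sharp1 and -0.20 in shHIF and did not pass, the shHIF one except without shGFP A (0.0219), without shHIF D (0.0464) and without dim probe sets (0.0380).

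JUNB, an immediate early relative of JUN with weaker activating power, was higher in both. JUNB read 7.19, 7.30, 7.25 and 7.28 in Sharp1 cells, 7.26, 7.30, 7.41 and 7.32 in shHIF cells, and 6.91, 6.90, 6.92 and 7.11 in shGFP cells. No array of either Sharp1 or shHIF reached down to shGFP, and those groups overlapped each other. JUNB rose by 0.29 in Sharp1 (SE 0.07, adjusted p = 0.00378) and in shHIF by 0.36 (SE 0.07, adjusted p = 0.000424). Sharp1 differed from shHIF by -0.07, with a 95% interval of -0.22 to 0.08.

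JUND, which in most cells is made steadily rather than on stimulation, was lower in shHIF cells. Its brightest probe set read 11.52, 11.49, 11.56 and 11.59 in Sharp1 cells, 11.44, 11.48, 11.46 and 11.36 in shHIF cells, and 11.61, 11.58, 11.57 and 11.68 in shGFP cells. The shHIF arrays lay below all others, by a difference of -0.17 from shGFP (SE 0.04, adjusted p = 0.00137). In Sharp1 cells the difference was -0.07, with a 95% interval of -0.15 to 0.01. A second probe set, 203751_x_at, also fell in shHIF cells, by 0.32 (adjusted p = 0.00973). The call of 214326_x_at there (-0.27, adjusted p = 0.0491) was lost without any 1 of the shGFP arrays (0.0572 to 0.130), without shHIF A (0.0646), B (0.0975) or D (0.123), without Sharp1 C (0.0515) or D (0.0580), without shHIF A and D together (0.188) and with array weights (0.0502). 229117_s_at, which was dim, differed by -0.09 without passing. Probes of 203751_x_at and 214326_x_at may cross-hybridise, and these sets averaged 6.17 and 5.83 over the 12 arrays, against 11.53 for the brightest. Between Sharp1 and shHIF the brightest probe set differed by 0.11 (adjusted p = 0.0391), a call lost without shGFP A (0.0519), shHIF A (0.0701) or D (0.119), or Sharp1 A (0.0521), C (0.102) or D (0.127). It was also lost with the mean of probe sets (0.0679), with these groups alone (0.0610), without a variance trend (0.176) and without shHIF A and D together (0.268).

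**Figure D3:**
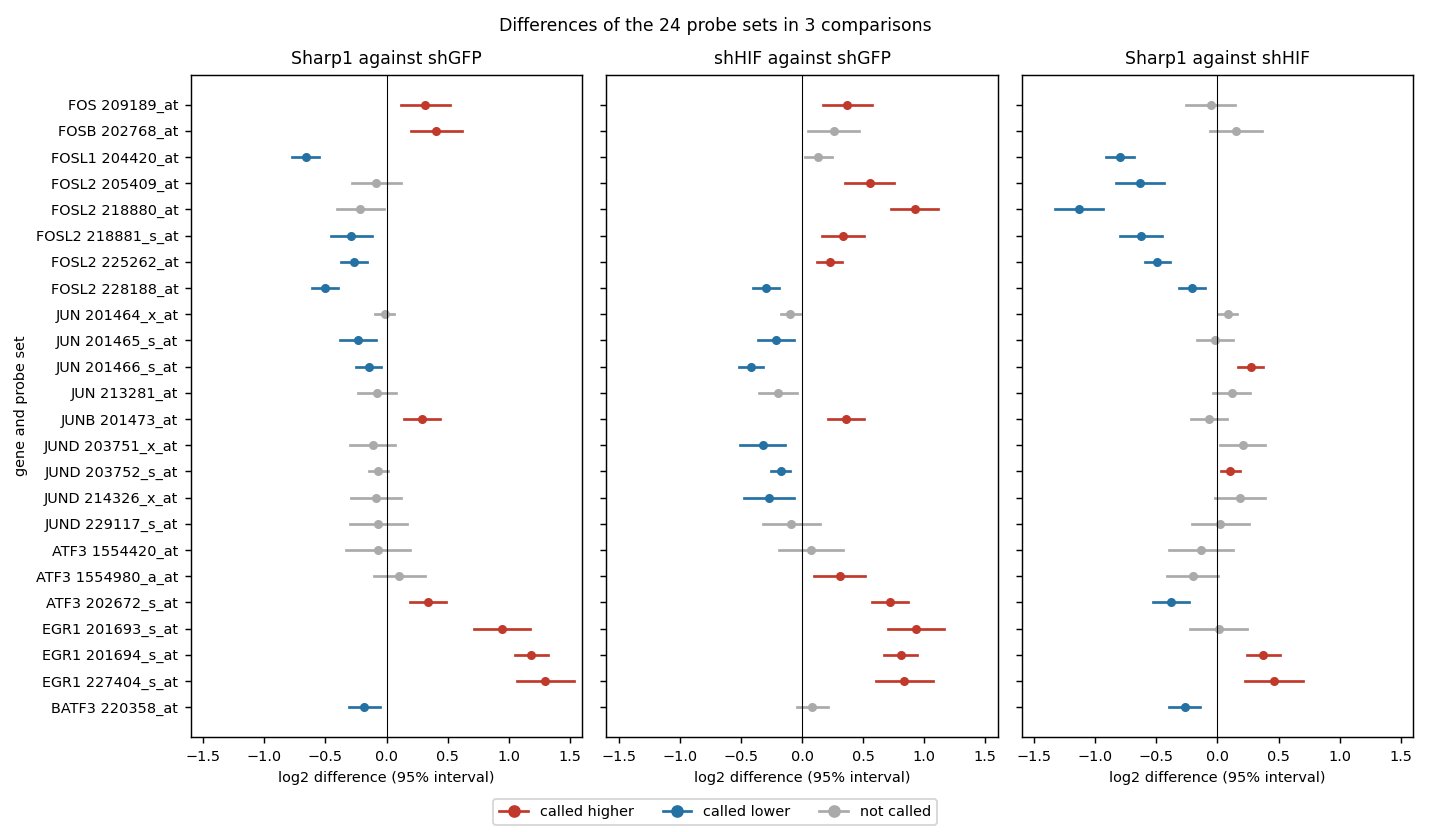
Log2 difference of each of the 24 probe sets (points) with its 95% interval before adjustment (lines) for Sharp1 against shGFP, shHIF against shGFP and Sharp1 against shHIF; positive values are higher in the group named first, and colour gives limma's call at an adjusted p under 0.05. The EGR1 probe sets are to the right of 0 in the first 2 panels, and FOSL1 and all 5 FOSL2 probe sets are to the left in the third.

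ATF3, a stress-induced factor that pairs with JUN proteins and often represses, was highest in shHIF cells. Its brightest probe set read 7.06, 6.90, 6.98 and 7.04 in Sharp1 cells, 7.26, 7.50, 7.33 and 7.40 in shHIF cells, and 6.67, 6.68, 6.61 and 6.67 in shGFP cells. The 3 groups did not overlap. ATF3 was 1.65-fold higher in shHIF cells (log2 0.72, SE 0.07, adjusted p = 6.14e-08) and 1.26-fold higher in Sharp1 cells (log2 0.34, SE 0.07, adjusted p = 0.00120). The Sharp1 level was below the shHIF level by 0.38 (adjusted p = 0.000195). On the mean of the 3 ATF3 probe sets the Sharp1 difference was 0.13 and did not pass (adjusted p = 0.196), that of shHIF was 0.37 and passed, and Sharp1 against shHIF was -0.24 and passed. The probe set 1554980_a_at differed by 0.10 in Sharp1 and 0.31 in shHIF, where its call (adjusted p = 0.0312) was lost without shGFP B (0.131) or C (0.0967) or shHIF A (0.152) or B (0.0608), without shHIF A and D together (0.206) and without a variance trend (0.0550). The last, 1554420_at, lay below the median probe set and was not called.

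BATF3, a small leucine zipper protein without an activation domain that pairs with JUN proteins and is best known from dendritic cells, read 7.89, 8.03, 7.95 and 7.88 in Sharp1 cells, 8.22, 8.14, 8.19 and 8.27 in shHIF cells, and 8.10, 8.10, 8.06 and 8.22 in shGFP cells. The Sharp1 arrays lay below both other groups. The fall against shGFP was 0.18 (adjusted p = 0.0381), a call lost without shGFP A (0.0697), B (0.0631) or D (0.125), without Sharp1 A (0.106), C (0.0700) or D (0.113), with each array centred on its median (0.0880) and without a variance trend (0.0545). Against shHIF cells BATF3 fell by 0.27 (adjusted p = 0.00139), which held in every alternative run. shHIF and shGFP differed by 0.08, with a 95% interval of -0.04 to 0.21.

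The direct comparison of Sharp1 with shHIF called 4 of the 24 probe sets higher in Sharp1 and 8 lower, so 12 in all, where 29.1% of all probe sets (15.3% higher, 13.8% lower) and 48.0% of those above the median were called. Groups did not overlap for 12, where this held for 28.0% of all probe sets. By the brightest probe sets 6 of 10 genes were called, against 36.1% of all genes. The 8 lower were all 5 probe sets of FOSL2 and those of FOSL1, BATF3 and, by its brightest, ATF3. The 4 higher were 2 of EGR1, 1 of JUN (201466_s_at, by 0.27) and 1 of JUND. FOS, FOSB and JUNB did not pass in this comparison.

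By a rule on the brightest probe sets, the 3 members with the widest range of group means were EGR1, FOSL1 and ATF3, and for each the gene with the nearest profile was sought by the root mean square difference of centred log2 values over 12 arrays. For EGR1 these were RAB15 (0.10), MELTF (0.12) and KBTBD8 (0.12), where the median gene was at 0.52. For FOSL1 they were DUSP5 (0.06), TBC1D15 (0.08) and FZD2 (0.08), where the median gene was at 0.37. DUSP5, a nuclear phosphatase of ERK, differed by -0.74 between Sharp1 and shGFP and by 0.06 between shHIF and shGFP. In the same order TBC1D15 differed by -0.59 and 0.17, and FZD2 by -0.58 and 0.11. A link of these genes to FOSL1 was not tested. Being picked as the nearest, such genes lie under the median gene by the way they were chosen. For ATF3 they were ZHX2 (0.08), GRAMD2B (0.08) and NICOL1 (0.09), where the median gene was at 0.31.

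Genes around these factors were read from 5 lists, each by the brightest probe set of a gene. Over all 19775 genes so read, 14.0% were called higher and 10.7% lower in Sharp1 cells, 16.0% and 12.3% in shHIF cells, and 17.2% and 18.9% in Sharp1 against shHIF. The median difference over all genes was -0.00 in Sharp1, 0.05 in shHIF and -0.06 in Sharp1 against shHIF.

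Of 10 measured leucine zipper partners and competitors of AP-1, 2 were called higher and 4 lower in Sharp1 cells (median -0.03). JDP2, a partner of JUN that represses AP-1 sites, averaged 8.60 in Sharp1 and 7.13 in shGFP cells, a rise of 1.47 (SE 0.08, adjusted p = 7.85e-13). Its other probe set differed by 0.15 and was not called, and the mean of both was 0.81. MAFF, a small MAF protein, rose by 0.73 and its relative MAFG fell by 0.32. In shHIF cells 2 were called higher and 3 lower (median 0.02), or 1 and 2 without shGFP A, without shGFP B or without shHIF B. Among them BATF, a relative of BATF3, rose by 0.46 and MAFF fell by 0.23. Against shHIF cells, 4 of the list were higher in Sharp1 and 3 lower. With the mean of probe sets, and also without a variance trend, 2 were higher and 4 lower. In the main fit JDP2 was at 1.48 (0.76 on the mean of probe sets), MAFF at 0.95, BATF at -0.72 and MAFG at -0.35.

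Of 13 other immediate early transcription factors, 1 rose and 4 fell in Sharp1 cells (median -0.10). KLF10, which TGF-beta induces, differed by -1.44 (SE 0.06), the zinc finger factor KLF4 by -1.17 (SE 0.05), MYC by -0.26 and KLF6 by 0.21 (0.13 on the mean of probe sets). In shHIF cells 3 were called, all higher (median 0.04): the orphan nuclear receptor NR4A2 by 0.75, KLF10 by 0.48 and KLF4 by 0.27. In Sharp1 against shHIF, 2 were higher and 6 lower, with KLF6 at 0.26, KLF10 at -1.92, KLF4 at -1.44 and NR4A2 at -0.89.

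Of 14 other immediate early genes, 4 rose and 5 fell in Sharp1 cells (median -0.07). DUSP1, a phosphatase that ends MAP kinase signals, rose by 0.87 (SE 0.05), the NF-kB cofactor NFKBIZ by 0.36 and the stress protein GADD45B by 0.29. TRIB1, a pseudokinase, differed by -0.94 and IER3, a survival factor, by -0.78. On the mean of probe sets DUSP1 was at 0.45 and TRIB1 at -0.32. In shHIF cells 4 rose and 5 fell (median 0.09), with PPP1R15A, a phosphatase subunit of the stress response, at 0.51, the kinase SGK1 at 0.41, GADD45B at 0.30, NFKBIZ at -0.47, the matrix protein CCN1 at -0.33 and PHLDA1 at -0.25 (-0.78 on the mean of probe sets). NFKBIZ was at -0.30 without shHIF A and D, whose spike-in was low. In Sharp1 against shHIF, 4 were higher and 7 lower, with NFKBIZ at 0.83, DUSP1 at 0.64, CCN1 at 0.27, TRIB1 at -1.14 and IER3 at -0.56, and on the mean of probe sets DUSP1 was at 0.40 and TRIB1 at -0.55.

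Of 16 upstream kinases, SRF partners and EGR corepressors, 2 rose and 4 fell in Sharp1 cells (median -0.06). RPS6KA1, a kinase activated by ERK, differed by -0.43, and NAB2, a corepressor of EGR1 that EGR1 is known to induce, by -0.40 (SE 0.08, adjusted p = 0.00103). In shHIF cells 1 rose and 8 fell (median -0.12), or 1 and 4 without shHIF A and D and with the mean of probe sets, and 5 in all without a variance trend. MAPK8, which encodes the kinase JNK1, fell by 0.56 (SE 0.04). In Sharp1 against shHIF, 7 were higher and 3 lower (3 and 3 with the mean of probe sets), with MAPK8 at 0.68 and RPS6KA1 at -0.34.

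Of 21 genes known as AP-1 targets, 9 rose and 5 fell in Sharp1 cells (median 0.08). The cyclooxygenase PTGS2 rose by 3.12, the cytokine IL11 by 0.98 and the hyaluronan receptor CD44 by 0.90. The collagenase MMP1 differed by -1.28, the chromatin protein HMGA1 by -1.28 and the cyclin CCND1 by -0.50. In shHIF cells 4 rose and 3 fell (median 0.05): MMP1 rose by 1.58, the cytokines IL6 and CXCL8 by 1.18 and 0.89, the urokinase PLAU differed by -0.58 and the intermediate filament VIM by -0.26 (-0.39 on the mean of probe sets). In Sharp1 against shHIF, 7 were higher and 7 lower, with PTGS2 at 2.70, IL11 at 1.02 and CD44 at 1.01, and with MMP1 at -2.86, HMGA1 at -1.32 and IL6 at -0.69. PTGS2 (5.35) in shGFP lay below the median probe set.

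**Figure D4:**
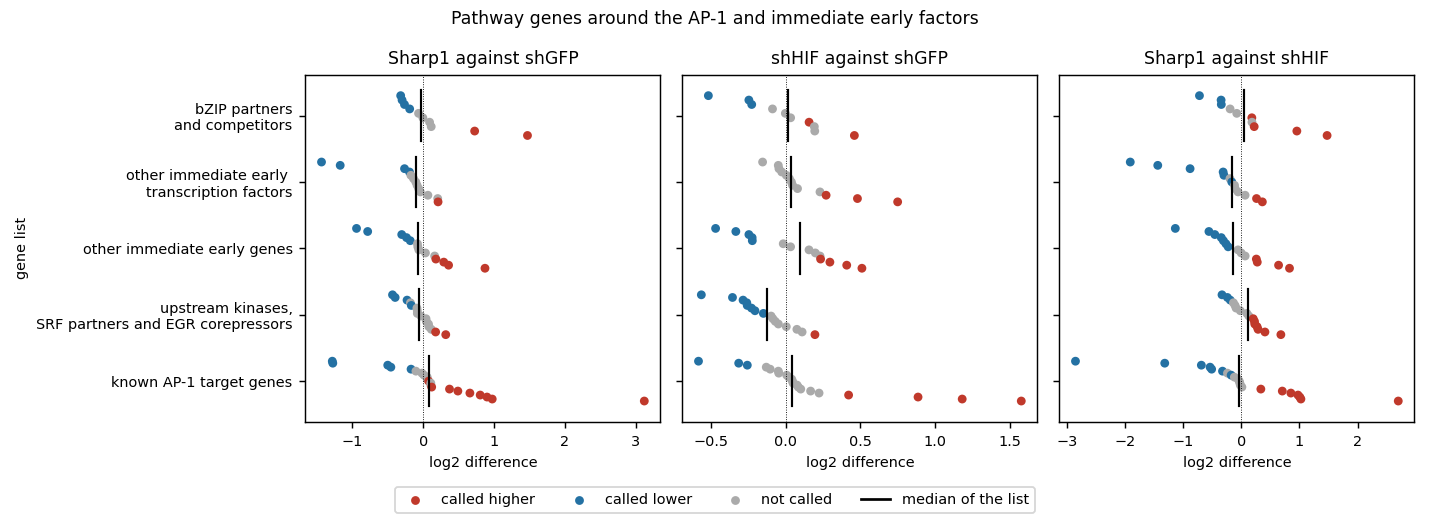
Log2 difference of each gene (points, by its brightest probe set) in 5 lists around the AP-1 and immediate early factors, for Sharp1 against shGFP, shHIF against shGFP and Sharp1 against shHIF; colour gives limma's call, black bars the median of each list, and the horizontal scale differs between panels. Every list holds genes called in both directions in Sharp1 against shGFP.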

How the data were processed

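RNA from 12 samples of the line was measured on Affymetrix arrays of 54675 probe sets, of which 62 controls stayed out of every test. Per the submitters' processing notes the authors normalised the arrays with RMA, and the deposited numbers are on a log2 scale, 1 per probe set and array. The sources used here give no RMA version. Such numbers carry no read depth, and precision rests on 4 arrays a group.

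Probe sets with a single symbol in the platform annotation were named, after updating symbols by gene ID to RefSeq's GRCh38.p14 table. limma 3.58.1 (R 4.3.3) fitted group means to 54613 probe sets over the 12 arrays, with eBayes and a variance trend, and the Benjamini-Hochberg adjustment ran over all probe sets of a comparison. A call is an adjusted p under 0.05, and intervals are 95% and unadjusted. A gene's brightest probe set has the highest mean over all arrays. Of 85 list entries 74 were measured by a probe set with a single symbol, and the rest were not analysed here. From each list and comparison the text names the called genes that changed most, at most 3 each way; those whose call was lost under an alternative were left out after their values were seen. Members and lists were chosen with earlier results of these data known. Alternatives were 1 probe set or the mean of probe sets per gene, a filter on dim probe sets, centring, array weights, no trend, a replicate block, fits to the groups compared, leaving out each array and, chosen after seeing the data, leaving out shHIF A and D. The fit was tested on simulated data.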

Additional observations from a re-analysis of the deposited data

Results flagged for a closer look

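In each of 72 sets of 4 arrays (24 probe sets in 3 groups), the highest or lowest array was set against the nearest other by the ratio of gap to range, and in 4 sets it was above Dixon's critical value for 4 samples. About 1 set in 20 does so by chance. All 4 were in shGFP cells. FOSL2 on 205409_at read 5.88 on shGFP B, with the other shGFP arrays at 6.26 to 6.31 (ratio 0.896), and on 228188_at it read 9.20 on shGFP B, with the others at 9.08 to 9.09 (0.891). JUNB read 7.11 on shGFP D, with the others at 6.90 to 6.92 (0.877). ATF3 on 202672_s_at read 6.61 on shGFP C, with the others at 6.67 to 6.68 (0.961). The calls of these 4 probe sets in both comparisons with shGFP were the same without the array in question.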

How the results depend on the processing

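Over 24 probe sets and 3 comparisons, 33 of 43 calls held in every alternative run for that probe set (18 to 21, since fits per gene or without dim probe sets do not hold all of them), 10 were lost in at least 1, 7 of 29 results not called passed in at least 1, and no call turned its direction. Tested with 1 probe set per gene, 5370 of 19775 genes were called in Sharp1, 6095 in shHIF and 7588 in Sharp1 against shHIF, in place of 9875, 12122 and 15899 probe sets. With the mean of a gene's probe sets these numbers were 4807, 5430 and 7122. Fewer features are tested in both, and of 10 members 8, 7 and 6 genes were called with 1 probe set per gene and 8, 8 and 6 with the mean, in the same order, in place of 14, 17 and 12 probe sets. Leaving out 1 array at a time, 9 to 14 member probe sets were called in Sharp1 against shGFP, the fewest without shGFP B or Sharp1 A. The replicate letters did not pair the arrays: deviations from the group means correlated by -0.16 to 0.13 over 12 pairs of the same letter, and over 0.1 in 1. With a replicate block 12, 17 and 11 member probe sets were called, and the calls of JUN 201466_s_at (adjusted p = 0.0666) and BATF3 (0.0627) in Sharp1 and of JUND 203752_s_at in Sharp1 against shHIF (0.0632) were lost. Of 79 results named from the lists by the rule, 58 held in every alternative run for them. With the mean of a gene's probe sets, 4 turned their sign without passing and are left out of the text: ATF2 in shHIF (0.0396), and ATF7 (-0.000156), CREM (0.105) and RPS6KA3 (0.0448) in Sharp1 against shHIF. With that mean, 4 of the other immediate early transcription factors were higher and 1 lower in shHIF, in place of 3 higher.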
